A study of Mus musculus with 3 samples.

Results

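The genes described here are 35 genes of cholesterol and fatty acid synthesis, chosen by symbol from a list that runs from the sterol-sensing regulators through the mevalonate pathway and the sterol enzymes to the fatty acid enzymes. All 35 of the 35 were found among the 18287 genes of the count table, each under 1 gene ID. RNA came from a purchased culture of mouse aortic endothelial cells, the inner lining of that vessel, in 3 groups with 1 library each. The first group is labelled only as control. The next group was exposed to glucose oxidase, which oxidises glucose and releases hydrogen peroxide, at a dose of 5 mU/mL over 30 min. The last received this exposure and ethyl-2-hydroxybenzylamine (Et2HOBA), 0.2 mM over 24 h. Et2HOBA is known as a scavenger of reactive dicarbonyls such as isolevuglandins, which form when lipids oxidise. The labels give neither the order of the exposures nor the time of RNA harvest after the oxidant, and cells given Et2HOBA alone were not analysed here.

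Cells make cholesterol from acetyl-CoA through mevalonate, isoprenoids, squalene and lanosterol. The transcription factors SREBP1 and SREBP2 drive these genes and the fatty acid genes when membranes of the endoplasmic reticulum run low in sterol: the escort protein SCAP then carries them to the Golgi for cleavage, and INSIG proteins hold SCAP back when sterol is plentiful. In endothelial cells SREBP2 is also known to respond to disturbed flow.

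With 1 library per group, no test between conditions was possible and no p-value is given. No spread between cultures is known for any value. Reads in listed genes ranged from 35005089 to 40212212 per library. Genes at 0 reads numbered 131 in the control library, 464 with glucose oxidase and 218 with both agents. Fold values below are ratios of normalized reads, and the 95% range after each is an exact Clopper-Pearson interval on the reads of the pair of libraries, which includes counting error and no difference between cultures. The interval does not cover the choice of scaling. Log2 ratios were taken after adding 10 normalized reads. Glucose oxidase reads were recovered from deposited differences. All 8 endothelial markers were detected, with summed reads of 322184 in the control library, 221182 with the oxidant and 251738 with both agents. They went in both directions: Nos3 had 30246, 47041 and 74692 reads, whereas Vwf had 46607, 21567 and 12545, Kdr had 61640, 27584 and 24227 and Tek had 6786, 2877 and 1688. Of markers of other cell types, Adgre1 and Ptprc (macrophage), Dcn and Lum (fibroblast), Cnn1 (smooth muscle) and Adipoq, Lep and Cidec (adipocyte) were not listed. The 2 listed macrophage markers summed to 8221, 17079 and 27809 reads, nearly all from Cd68, while Csf1r had 6 to 12 reads. Pdgfra, a fibroblast marker, had 107, 1325 and 2821 reads, whereas Col1a1 had 23 to 30. The 3 listed smooth muscle markers summed to 36 to 90 reads, and Plin1, the listed adipocyte marker, had 0 to 8. The part of these markers in the results below was not tested. A lower level in such bulk RNA cannot be told apart as fewer cells of a type or less RNA per cell.

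After glucose oxidase most of the 35 genes were modestly lower than in control. The median log2 ratio was -0.41, against -0.01 over all genes listed, and values ran from -1.11 for Stard4 to 0.24 for Fads1. A log2 ratio under 0 was found for 32 of the 35 genes, against 51.1% of all genes. The only 3 above 0, where 48.9% of all genes lay, were Insig2, Fads1 and Acsl3, and Insig2 was at -0.04 when libraries were scaled by total count. At -0.5 or less there were 11 of 35, against 20.3% of all genes, and at 0.5 or more there were none, against 13.5%. Large differences were few. Only Stard4 and Acat2 passed 1 log2 unit, both lower, against 12.7% of all genes in either direction and 8.6% lower. All 35 members are protein-coding, and of the 13285 protein-coding genes 46.0% were under 0, 13.5% at -0.5 or less and 4.76% lower past 1 log2 unit. Acat2 lay at the limit, and in the authors' deposited table its value was -0.87.

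With glucose oxidase plus Et2HOBA the median against control was -0.34, against -0.000154 over all genes listed, and the range was wider, from -1.27 for Acat2 to 0.59 for Acsl3. Here 27 of the 35 were under 0, where 50% of all genes were, and 8 were above 0 (7 with total-count scaling, which put Fdft1 at -0.06). Acat2, Mvk and Stard4 passed 1 log2 unit, all lower, against 14.7% of all genes in either direction and 8.04% lower. At 0.5 there were 11 lower and 2 higher, against 20.9% and 19.2%. Of protein-coding genes 49.9% were under 0, 21.5% were lower and 19.1% higher at 0.5, and 9.30% were lower past 1 log2 unit. The comparisons with control share the control library, so their values are given side by side and no overlap is drawn from them.

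Between the treated libraries no member reached 1 log2 unit, against 8.55% of all genes in either direction, 6.39% higher and 2.15% lower. The median was 0.07, and 22 of 35 lay above 0 with Et2HOBA relative to glucose oxidase alone, against 49.8% of all genes, and 13 below 0, against 50%. Scaling by total count turned this to 16 above and 19 below, with a median of -0.02. That scaling also put the median of all genes at -0.08, and the share of all genes above 0 under it is not given here. Insig1, Cyp51 and Msmo1 reached 0.5 with Et2HOBA, against 13.6% of all genes, and none reached -0.5, against 12%. Protein-coding genes differed from the whole table here: 5.69% reached 0.5, 11.6% reached -0.5, 0.971% were higher past 1 log2 unit and 2.35% lower, and 46.6% lay above 0. Summed over the 35 genes, reads made up 0.513% of the control library, 0.391% of the glucose oxidase library and 0.387% of the library with Et2HOBA.

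**Figure D1:**
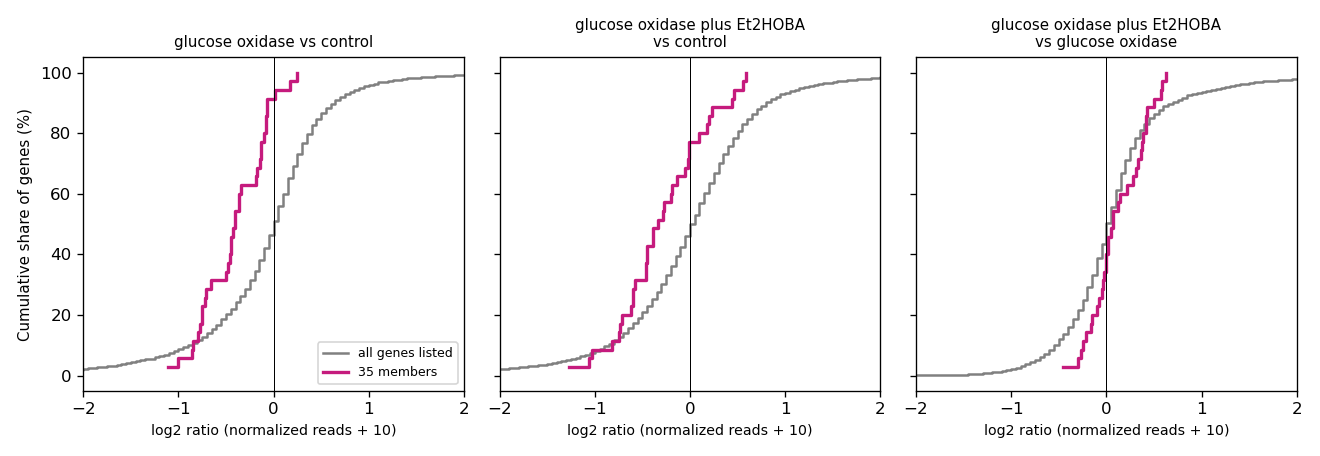
Cumulative share of genes (y axis, %) by log2 ratio of normalized reads plus 10 (x axis) for the 35 genes (thick line) and all 18287 genes listed (thin line, in bins) in the 3 comparisons, 1 library per group. Over most of the range the members lie to the left of all genes in both comparisons with control. Their medians there are -0.41 and -0.34. Between the treated libraries they lie near all genes, with a median of 0.07. Total-count scaling put this median at -0.02 and that of all genes at -0.08.

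Promoter sequence was compared because most of these genes were lower together after glucose oxidase. RefSeq promoters (GRCm38.p6) were matched by symbol for 28 of the 35 genes; Fads1, Fdft1, Fdps, Scd1, Scd2, Sqle and Stard4 had no entry. The 250 bases before each start were searched on both strands for the sterol regulatory element TCACNCCAC, the CCAAT box (CCAAT), which NF-Y binds, and the E-box CACGTG, which SREBP proteins and other helix-loop-helix factors can bind. The motifs as spelled were allowed to overlap. A gene was counted when any of its promoters held a match. A CCAAT box was found in 22 of the 28 genes, against 40.2% of 11414 genes of the count table with a promoter and 37.5% of 27025 genes over all promoters. Counted by single promoter, it was found in 23 of 36 of the members, against 33.9% of all 32851 promoters of this length. The E-box was found in 6 of the 28, namely Dhcr7, Elovl5, Hsd17b7, Insig1, Sc5d and Scap. It was found in 9.55% of genes in the count table and 6.86% of genes over all promoters. The sterol element in this exact spelling was found in 1 of the 28, Hmgcs1, against 1.235% and 1.225% of genes in the same sets. A match describes letters in this window and is no measurement of binding. Whether the motifs go with the read levels was not tested.

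Promoter stretches outside annotated exons are shown for 4 genes, 5′ to 3′ along the gene, with every match in capitals (ATTGG is CCAAT on the other strand). Hmgcs1 is shown for its sterol element, 137 to 129 bases before the start, beside 3 CCAAT boxes. Insig1 is shown for its E-box, 101 to 96 bases before the start, Mvk for having the most CCAAT boxes of the 28 genes, 5, and Fasn for a pair of overlapping CCAAT boxes 62 to 55 bases before the start.
Hmgcs1, GRCm38.p6 chr13:119690101-119690350, plus strand: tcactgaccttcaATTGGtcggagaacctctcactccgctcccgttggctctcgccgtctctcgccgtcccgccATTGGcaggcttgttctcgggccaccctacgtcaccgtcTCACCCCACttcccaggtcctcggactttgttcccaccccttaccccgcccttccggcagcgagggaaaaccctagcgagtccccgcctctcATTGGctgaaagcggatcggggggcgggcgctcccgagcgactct
Insig1, GRCm38.p6 chr5:28071162-28071362, plus strand: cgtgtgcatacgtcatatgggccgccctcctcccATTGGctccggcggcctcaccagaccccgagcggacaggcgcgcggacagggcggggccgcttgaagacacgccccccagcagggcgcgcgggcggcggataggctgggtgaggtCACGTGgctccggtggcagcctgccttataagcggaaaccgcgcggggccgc
Mvk, GRCm38.p6 chr5:114444061-114444268, plus strand: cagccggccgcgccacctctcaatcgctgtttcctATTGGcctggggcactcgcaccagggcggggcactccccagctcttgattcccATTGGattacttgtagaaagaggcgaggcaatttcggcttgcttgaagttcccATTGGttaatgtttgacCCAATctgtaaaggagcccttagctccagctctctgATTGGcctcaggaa
Fasn, GRCm38.p6 chr11:120824548-120824797, minus strand: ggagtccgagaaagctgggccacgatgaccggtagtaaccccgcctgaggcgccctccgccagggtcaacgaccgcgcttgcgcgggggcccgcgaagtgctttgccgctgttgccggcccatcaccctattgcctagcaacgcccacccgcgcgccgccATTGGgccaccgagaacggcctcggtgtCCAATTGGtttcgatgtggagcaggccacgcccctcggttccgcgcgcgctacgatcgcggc

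Per kilobase of annotated exon, which allows levels to be set beside each other, the desaturase gene Scd2 was highest in all 3 libraries. Its level was 10934 normalized reads per kb in control cells, 8634 in the glucose oxidase library and 8374 with Et2HOBA. Acly, Fads1, Insig1 and Fasn followed in control, with 2787, 2085, 2019 and 1910. The order among these changed with treatment: Fads1 was the third in control and the second with Et2HOBA, where it had 2868 against 2295 for Acly. Among cholesterol enzymes Sqle was highest in control, at 845, and Fdps lowest, at 18.9. Fdps had only 82, 43 and 63 reads. It shares 1124 of its 4208 exon bases on the same strand with the annotated gene Gm43738, which was not listed, and how the counting treated reads in shared exons is not given in the sources used here.

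**Figure D2:**
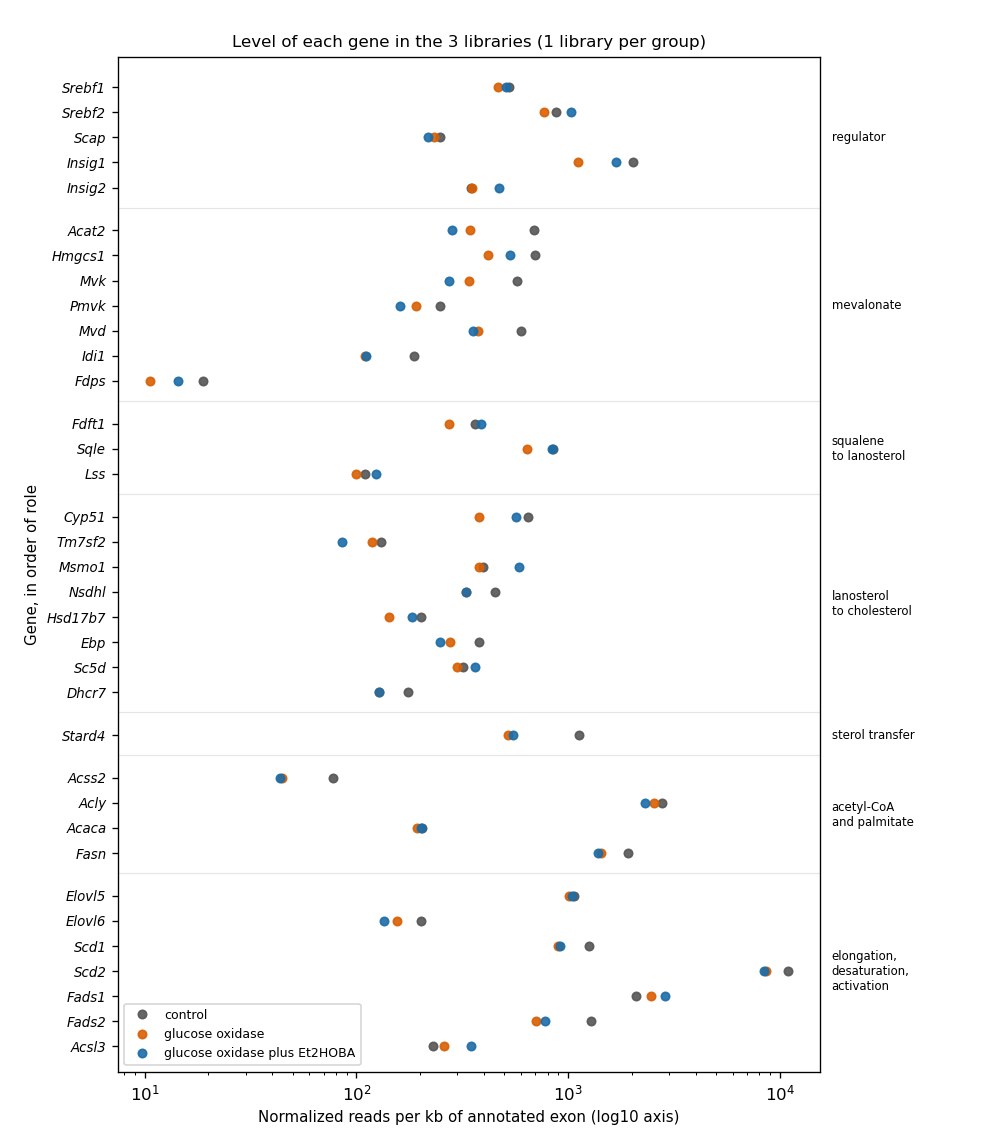
Normalized reads per kb of annotated exon (x axis, log10) for each gene (y axis, grouped by role) with 1 point for each library, coloured by treatment. Scd2 lies highest in each library, at 8374 to 10934, and Fdps lowest, at 10.6 to 18.9.

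Of the 5 regulators, Insig1 differed most after glucose oxidase and between the treated libraries, and Insig2 differed most with Et2HOBA against control. Insig1, an SREBP target whose protein retains SCAP in the endoplasmic reticulum, had 6446 control reads, 3340 with the oxidant and 5382 when Et2HOBA was present too. The glucose oxidase library was the low one, at 0.554 of control (95% range 0.531 to 0.578), and the library with Et2HOBA lay at 0.830 of control (0.800 to 0.860) and 1.50 times the level with glucose oxidase alone (1.43 to 1.56). Read numbers of the genes that follow are in the order control, glucose oxidase, glucose oxidase plus Et2HOBA. Insig2, a paralog with the same retention role, had 1247, 1178 and 1703 reads. Its level after glucose oxidase could not be told from control at this depth (0.932 to 1.09), and with Et2HOBA it was 1.36 times control (1.26 to 1.46). Srebf2, which encodes the factor with the stronger pull on cholesterol genes, had 6502, 5360 and 7697 reads, 0.881 of control after glucose oxidase (0.850 to 0.914) and 1.18 times control with Et2HOBA (1.14 to 1.22). Srebf1, whose product acts more on fatty acid genes, had 3065, 2539 and 2983 reads, 0.886 (0.840 to 0.934) and 0.967 (0.919 to 1.02) of control. Only the glucose oxidase library was lower beyond counting error with the size factors used here. With total-count scaling the log2 ratio of Srebf1 with Et2HOBA against control was -0.20 instead of -0.05. That of Srebf2 was 0.08 instead of 0.23. Scap, the escort, had 1912, 1669 and 1675 reads and was slightly lower in both, at 0.933 (0.873 to 0.997) and 0.870 (0.815 to 0.930) of control. None of the 5 regulators passed 1 log2 unit in any comparison.

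All 7 genes of the mevalonate pathway lay below control with either treatment, with medians of -0.72 and -0.73. Of all genes, 51.1% and 50% lay below control. Acat2 (ENSMUSG00000023832.14, chromosome 17, 12942890 to 12960747), the cytosolic thiolase that joins acetyl-CoA into acetoacetyl-CoA, had 1812, 840 and 749 reads. Both treated libraries were far below control, at 0.496 (0.456 to 0.538) and 0.411 (0.377 to 0.447) of its level. Acat2 shares 45.9% of the 50-base stretches of its longest transcript with other annotated genes, namely its paralog Acat3, which had 25, 51 and 23 reads, and Tcp1, which had 8778, 9397 and 11252. How reads in these stretches were assigned is not given in the sources used here. Mvk (ENSMUSG00000041939.14, chromosome 5, 114444269 to 114460591), mevalonate kinase, had 1587, 875 and 762 reads, 0.589 (0.542 to 0.641) and 0.477 (0.437 to 0.520) of control. Only 0.858% of its stretches are shared. Acat2 and Mvk were thus lowest in the library with Et2HOBA, as was Pmvk, phosphomevalonate kinase, with 438, 317 and 287 reads.

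Hmgcs1, the HMG-CoA synthase that follows Acat2, ran the other way between the treated libraries. It had 3300, 1864 and 2530 reads, lowest after glucose oxidase alone, at 0.604 of control (0.570 to 0.639), and 1.26 times that level with Et2HOBA (1.19 to 1.34). Mvd, the decarboxylase that makes isopentenyl diphosphate, had 1143, 672 and 684 reads, and Idi1, which isomerises that product, had 678, 373 and 406. For both, the treated libraries were close to each other and below control. Fdps, the farnesyl diphosphate synthase, was 0.561 of control after glucose oxidase (0.378 to 0.820), while its interval with Et2HOBA, 0.541 to 1.07, includes the control level. Processed pseudogenes share stretches with Fdps and Idi1: Gm3571 and Gm13502 had 91 and 20 reads in control, 11 and 3 after glucose oxidase and 82 and 14 with Et2HOBA.

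The 3 enzymes that make squalene and turn it into lanosterol were all lower after glucose oxidase. All were higher with Et2HOBA than with glucose oxidase alone. Fdft1, squalene synthase, which commits farnesyl diphosphate to sterols, had 1589, 1118 and 1705 reads, 0.752 of control (0.696 to 0.812) and then 1.42 times the glucose oxidase level (1.31 to 1.53). Fdft1 overlaps 774 exon bases of Ctsb on the other strand, a gene with 30616, 39150 and 50286 reads, and the strand setting of the counting is not given in the sources used here. Sqle, squalene epoxidase, a flux-controlling enzyme of the pathway, had 4839, 3428 and 4833 reads. With the size factors used here, its levels in control and with Et2HOBA were within counting error of each other (0.953 to 1.03 times control). The glucose oxidase library lay below both, at 0.757 of control (0.725 to 0.791). Lss, which closes the sterol rings, had 1221, 1041 and 1393 reads, with a small difference after glucose oxidase (0.838 to 0.991 of control) and 1.13 times control with Et2HOBA (1.05 to 1.23).

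The 8 enzymes from lanosterol to cholesterol split after Et2HOBA. Cyp51, the lanosterol demethylase, had 2946, 1611 and 2592 reads, lowest after glucose oxidase at 0.585 of control (0.550 to 0.621) and 0.874 of control with Et2HOBA (0.829 to 0.922). Msmo1 (ENSMUSG00000031604.10, chromosome 8, 64718139 to 64733792), the sterol methyl oxidase that acts after Cyp51, had 2521, 2249 and 3738 reads. Its level after glucose oxidase could not be told from control (0.901 to 1.01), and with Et2HOBA it was 1.47 times control (1.40 to 1.55) and the highest of the 3. Sc5d, the lathosterol desaturase, followed the same order, with 1596, 1409 and 1842 reads. Hsd17b7, the sterol ketoreductase, had 1067, 703 and 975 reads, lowest after glucose oxidase.

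The other four of these enzymes did not show higher levels with Et2HOBA than with glucose oxidase beyond counting error. Nsdhl, a decarboxylating sterol dehydrogenase, had 1330, 910 and 975 reads, and Dhcr7, the terminal reductase that makes cholesterol from its dehydro precursor, had 1049, 716 and 771. For Dhcr7 both treated libraries lay at 0.730 of control, with ranges of 0.663 to 0.803 and 0.665 to 0.802. Ebp, the sterol isomerase, had 908, 618 and 592 reads. Tm7sf2, a sterol reductase, had 596, 503 and 392 reads, the lowest with Et2HOBA at 0.654 of control (0.574 to 0.744), and it shares 532 exon bases on the same strand with Vps51, which had 2293 to 2453 reads.

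Stard4 (ENSMUSG00000024378.9, chromosome 18, 33199355 to 33213862), an SREBP2 target whose protein moves cholesterol between membranes, had 6469, 2807 and 3175 reads. Both treated libraries were well below control, at 0.464 (0.444 to 0.485) and 0.488 (0.467 to 0.509) of its level. They differed little from each other, at 1.05 times (0.999 to 1.11). No annotated transcript of another gene shares a 50-base stretch with Stard4. In the authors' deposited tables its log2 values were -1.06 and -1.02. Smaller exon overlaps with listed genes touch Cyp51 (166 bases of Akap9) and Srebf1 (109 bases of Rai1) on the other strand and Acsl3 (244 bases of Utp14b) on the same strand. Scap shares 985 exon bases on the other strand with 5830462I19Rik, which had 4 to 7 reads, and 13.1% of its stretches are shared.

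**Figure D3:**
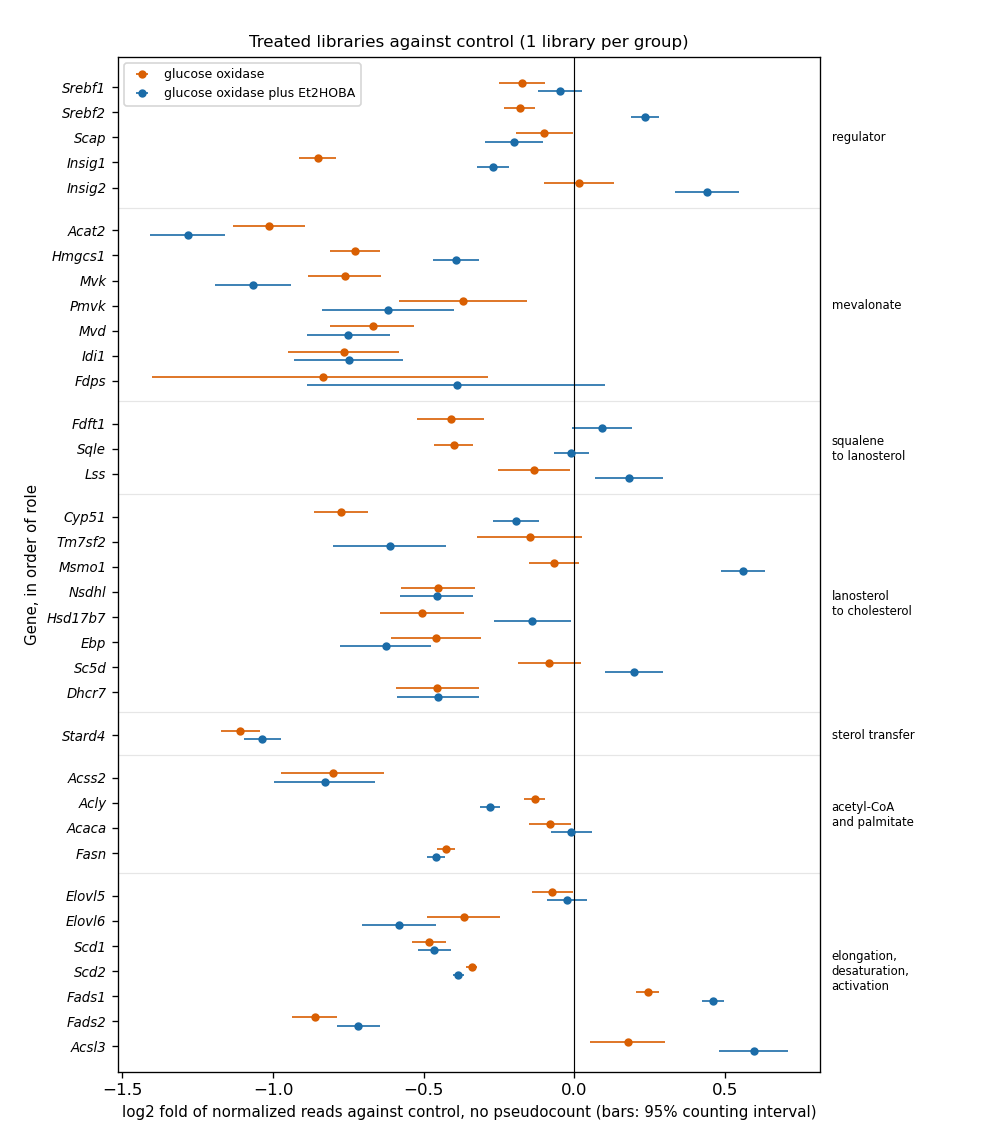
Log2 fold of normalized reads against control, with no pseudocount (x axis), for each gene (y axis, grouped by role) in each treated library; bars are 95% counting intervals from 1 library per group. The points of the mevalonate genes and Stard4 lie below control in both, though the bar of Fdps with Et2HOBA, 0.541 to 1.07, includes the control level. Msmo1, at 1.47 times control, lies above it only in the library with Et2HOBA.

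The 4 genes that lead to palmitate had log2 ratios under 0 in both treated libraries, with medians of -0.28 and -0.37, but by different amounts. Acss2, which activates acetate to acetyl-CoA, had 815, 437 and 462 reads, 0.573 (0.509 to 0.645) and 0.563 (0.501 to 0.632) of control. It overlaps 395 exon bases of Gss on the other strand, and Gss had 1261, 1693 and 2429 reads. Acly, which makes acetyl-CoA from citrate, had 15183, 12958 and 12581 reads, 0.912 (0.891 to 0.934) and 0.823 (0.804 to 0.843) of control. Acaca, the acetyl-CoA carboxylase that makes malonyl-CoA, was nearest to control, with 3600, 3184 and 3597 reads and log2 ratios of -0.08 and -0.01. With Et2HOBA its level could not be told from control (0.948 to 1.04). Acaca shares 52.6% of its stretches with other genes, including the processed pseudogene Gm5182, which had 155 to 235 reads. Fasn (ENSMUSG00000025153.9, chromosome 11, 120805846 to 120824547), fatty acid synthase, had 21580, 15028 and 15800 reads, 0.744 (0.729 to 0.760) and 0.727 (0.713 to 0.743) of control, and it shares no stretch.

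The 7 genes for elongation, desaturation and activation of fatty acids held both directions. Scd2 and Scd1, stearoyl-CoA desaturases that place the first double bond, were lower in both treated libraries. Scd2 had 61655, 45541 and 47521 reads, 0.790 (0.780 to 0.799) and 0.766 (0.757 to 0.775) of control, and Scd1 had 6349, 4247 and 4630. Elovl6, which elongates palmitate, had 1336, 969 and 898 reads, at 0.775 (0.713 to 0.843) and 0.668 (0.613 to 0.727) of control. Elovl5, which elongates polyunsaturated chains, differed little, with 3857, 3430 and 3816 reads, 0.951 (0.908 to 0.996) and 0.983 (0.940 to 1.03) of control.

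The front-end desaturases Fads2 and Fads1, which act in turn on polyunsaturated fatty acids, differed in direction. Fads2 (ENSMUSG00000024665.8, chromosome 19, 10062765 to 10101746) had 4347, 2237 and 2662 reads, 0.550 (0.523 to 0.579) and 0.608 (0.580 to 0.639) of control. Fads1 (ENSMUSG00000010663.5, chromosome 19, 10182888 to 10196877) had 10355, 11463 and 14334 reads, 1.18 (1.15 to 1.22) and 1.38 (1.34 to 1.41) times control. Their neighbour Fads3 (chromosome 19, 10041569 to 10060110), which is no member, had 3834, 6735 and 9050 reads, 1.88 (1.80 to 1.95) and 2.35 (2.26 to 2.44) times control. So of 3 neighbouring paralogs 1 was lower and the other two higher in both treated libraries. Only 0.161% of the stretches of Fads2 are shared with another gene, and Fads1 shares none. Acsl3, a long-chain acyl-CoA synthetase of lipid droplets, also lay above control, with 1034, 1093 and 1571 reads. It was 1.13 times control after glucose oxidase (1.04 to 1.23), and at 1.51 times control with Et2HOBA (1.39 to 1.63) it was the highest of the 35 against control.

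Between the treated libraries the largest ratio with Et2HOBA was that of Msmo1, at 1.54 (1.47 to 1.63), followed by Insig1 and Cyp51, both at 1.50 (1.43 to 1.56 and 1.40 to 1.59), and Fdft1. The lowest was that of Tm7sf2, at 0.724 (0.633 to 0.828), followed by Mvk at 0.809 (0.734 to 0.893) and Acat2 at 0.829 (0.750 to 0.916). Genes of the same pathway thus lay on both sides, and neither the mevalonate group, with a median of -0.08, nor the group from lanosterol to cholesterol, with 0.14, lay on 1 side. The palmitate group had a median of -0.03. The 3 squalene enzymes, at 0.31 to 0.50, were all higher with Et2HOBA.

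**Figure D4:**
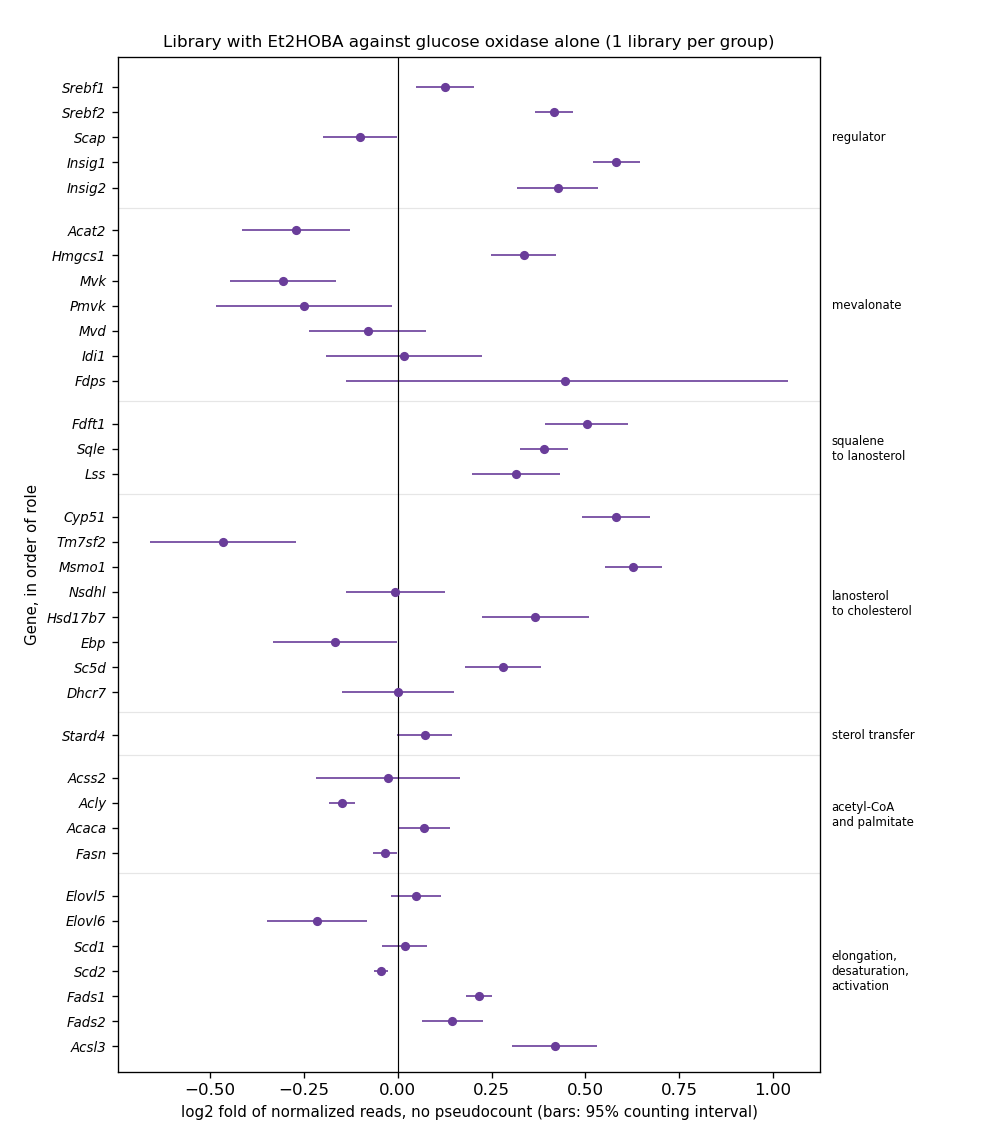
Log2 fold of normalized reads (x axis, no pseudocount) between the library with both agents and that with the oxidant alone, for each gene (y axis, grouped by role); bars are 95% counting intervals from 1 library per group. Msmo1, Insig1 and Cyp51 lie highest of the well-covered genes, at 1.50 to 1.54 times, Tm7sf2 lies lowest at 0.724, and the widest bar belongs to Fdps, which had 43 and 63 reads.

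Other genes of the pathway came from 6 lists, of which 78 genes were in the count table. At 1 log2 unit, 2 were higher and 2 lower after glucose oxidase, against 4.07% and 8.6% of all genes; 6 were higher and 7 lower with Et2HOBA against control, against 6.66% and 8.04%; and 1 was lower between the treated libraries, against 2.15%. None of the 10 genes of SREBP processing and turnover passed in any comparison. Mbtps1 and Mbtps2, the proteases that cleave SREBP proteins, had log2 ratios against control of -0.14 and 0.31 after glucose oxidase and of -0.23 and 0.68 with Et2HOBA. Of 10 genes of the isoprenoid branches 1 passed, lower with Et2HOBA against control, where 8.04% of all genes were lower. It was Pdss1, which makes the tail of coenzyme Q, with 209, 120 and 99 reads. Pdss1 shares 194 exon bases on the other strand with Abi1, which had 4494, 4799 and 6164 reads.

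Of 16 listed genes of sterol transport, storage and oxysterols, 2 passed after glucose oxidase and 3 with Et2HOBA against control, all higher. Over all genes 4.07% and 6.66% were higher at this limit. Soat2 (ENSMUSG00000023045.13, chromosome 15, 102150526 to 102163469), which esterifies cholesterol for storage, had 70, 885 and 1068 reads. Both treated libraries were far above control, at 13.5 (10.6 to 17.5) and 15.2 (11.9 to 19.6) times control. Its protein is also called ACAT2, but it is not the product of Acat2. Soat1, the paralog with 3733 control reads, was 1.26 and 1.62 times control. Ch25h, which makes the oxysterol that suppresses SREBP cleavage, had 235, 578 and 568 reads, 2.63 (2.26 to 3.07) and 2.40 (2.06 to 2.81) times control. It overlaps Gm26902, a transcript on the other strand with 94, 195 and 184 reads. Npc1, the lysosomal cholesterol exporter, had 4592, 6653 and 9979 reads and passed the limit with Et2HOBA, at 2.16 times control (2.08 to 2.24). Npc1 shares 511 exon bases on the other strand with Rmc1, which had 2504, 1931 and 1897 reads.

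Of 5 listed genes of the sterol-sensing receptor LXR and its targets, 2 passed, both lower with Et2HOBA against control. Over all genes 8.04% were lower at this limit. Abca1, the cholesterol efflux pump, had 7307, 4396 and 3280 reads, 0.643 (0.619 to 0.668) and 0.446 (0.428 to 0.465) of control. Lpcat3, a phospholipid remodelling enzyme, had 3699, 1964 and 1698 reads. Lpcat3 shares 334 exon bases on the other strand with Emg1, which had 1844, 2029 and 2258 reads. Nr1h2, which encodes LXR-beta, was at 0.33 and 0.45 log2 units above control, and Nr1h3, which encodes LXR-alpha, had 7 to 15 reads. In the list of fatty acid supply, elongation and activation, with 22 genes listed, Thrsp, a lipogenic regulator, was lowest in the library with Et2HOBA. It had 422, 137 and 46 reads, 0.347 (0.284 to 0.422) and 0.108 (0.0781 to 0.147) of control, and it was the gene that passed between the treated libraries. Acacb, the mitochondrial-surface carboxylase, had 3881, 2067 and 1701 reads, and Elovl4 had 202, 122 and 70. Acss1, the mitochondrial counterpart of Acss2, had 46, 3 and 10 reads, and its ratio after glucose oxidase, 0.0697 of control, has a wide interval (0.0139 to 0.217). Fads3 and Acsl4, an arachidonate-preferring synthetase, passed above control with Et2HOBA, the latter with 5934, 8520 and 12724 reads. Of 15 glycerolipid genes listed, Gpat3 alone passed, higher with Et2HOBA against control, where 6.66% of all genes were higher. Gpat3 had 344, 502 and 741 reads. It shares 1052 exon bases on the other strand with 4930458D05Rik, which had 15, 37 and 25 reads.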

How the data were processed

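RNA-seq libraries from 3 groups of mouse aortic endothelial cells were used, 1 per group. STAR, featureCounts and mm10 are named in the submitters' processing notes; versions, strand and multi-mapping settings are not given in the sources used here. The deposited count table holds raw read counts of the control and glucose oxidase plus Et2HOBA libraries with log-normalized log2 values and their difference, per the file headers. The other deposited tables hold a symbol and a log2 difference, for 18287 genes (glucose oxidase against control) and 7 genes (between the treated libraries). How the authors normalized is not stated in the headers. Coordinates match GENCODE M21 (GRCm38) for all 17878 gene IDs of equal version.

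Reads of the glucose oxidase library were recovered. The log2 differences were matched by an arcsinh transform of scaled, square-rooted reads, with a scale for each library. Inverting it with the control counts gave values within 0.01 of a whole read for 100% of 18275 genes, against 3.31% when 1 read too many was put into the control. Whole reads also placed 12 genes that share a listed name.

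Size factors (median of ratios over the 3 libraries) were 1.03, 0.965 and 1.04. A pseudocount of 10 was added to the scaled reads before log2 ratios were taken, and the limit was 1. Folds of single genes use no pseudocount. A 50-base stretch counts as shared when it occurs in a transcript of another GENCODE gene on either strand. Python 3.11.15 and, for TMM factors, edgeR 4.0.16 were used. Log2 ratios, taken with size factors from the same steps, were checked on simulated libraries with few changed genes and counting error only. That setting does not test the scaling in these data, where 12.7% of genes passed 1 log2 unit after glucose oxidase. The inversion of reads was checked on the simulated libraries with its scales given, so the fitting of the scales was not simulated. The intervals, shared stretches and motif search were not simulated. All members are given. Named in full were those past 1 log2 unit in any comparison, the regulators, and the ends of each role group; other pathway genes were named when past the limit, at most 6 per list. Gm genes, markers, overlapping genes, Mbtps1, Mbtps2, Soat1, Nr1h2 and Nr1h3 were named outside this rule after values were seen, as were Fads3 beside Fads2 and the motifs searched. The members and lists were chosen with earlier results of these data known. Not every enzyme of the pathway is reported here.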

Additional observations from a re-analysis of the deposited data

How the results depend on the processing

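No paired analysis was possible because each group has 1 library, and no replicate could be left out. The count of members past the limit after glucose oxidase, 2, became 1 on the deposited table's scale, with a pseudocount of 50, over the 11 members with no shared stretch, and over 29 members without Fdps, Tm7sf2, Fdft1, Acss2, Acaca and Acat2, a choice made after the data were examined. With Et2HOBA against control the count of 3 became 1 over the 11 members. At a limit of 0.5 the counts were 11, 13 and 3 for glucose oxidase, for Et2HOBA against control and between the treated libraries. At a limit of 2 they were 0 in each comparison, where the count between the treated libraries was 0 already. The median with Et2HOBA against control, -0.34, was -0.47 when scaled by total count, where all genes had a median of -0.13, and -0.45 over the 11 members. The median after glucose oxidase ran from -0.46 to -0.36 over the alternatives. Between the treated libraries it changed sign to -0.02 with total-count scaling, where all genes had a median of -0.08, and to -0.01 over the 11 members. Single values that changed sign with total-count scaling were those of Insig2 after glucose oxidase, Fdft1 with Et2HOBA against control, and Idi1, Dhcr7, Stard4, Acaca, Elovl5 and Scd1 between the treated libraries; Nsdhl did so on the deposited table's scale and Dhcr7 with TMM, both between the treated libraries. The largest reported value among them was 0.09, of Fdft1, which became -0.06. Over the single genes in all comparisons, 51 values moved past the half-width of their counting interval with total-count scaling and 54 did not. On the deposited table's scale 15 did so and 90 did not. The fewest reads among members were those of Fdps, 43 to 82, so its intervals are the widest.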
